A study of Mus musculus with 2 samples.

Results

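Heterotrimeric G proteins and the regulators of G protein signalling (RGS proteins) carry and switch off the signals of G protein-coupled receptors. The gene set described here comprised 49 of the 22028 protein-coding genes in the left cerebral cortex of the mouse: 14 alpha, 5 beta and 11 gamma subunit genes and 19 RGS genes. Members were chosen by symbol, from the Gnai, Gnat, other Gna, Gnb, Gng and Rgs names, with earlier results of these data known. The symbols matched 52 genes, of which Gng7, Rgs9 and Rgs5 were left out by the rule. Gnas and Gnal, whose symbols carry no number, fell outside it.

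The cortex was taken from 2 adult males aged 8 to 10 months. Their strain, B6CASTF1/J, crosses B6 with Cast mice. Neither animal was treated or altered as far as the labels say, both form 1 group, and no condition was compared. The libraries, called replicate 1 (animal 2) and replicate 2 (animal 4), were each made from 300 ng of total RNA, depleted of ribosomal RNA and mixed with ERCC spike-ins. Both carry the same donor label, and the animal numbers are the only sign that the spread given here is between animals; with 1 group no test was possible, and no p-value is given.

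A receptor bound by its ligand makes the alpha subunit exchange GDP for GTP, after which alpha and the beta-gamma pair act on separate effectors. Within the Gi/o class, the Gi alpha subunits lower cyclic AMP. Alpha subunits of the Gq/11 class activate phospholipase C beta, and those of the G12/13 class activate exchange factors that act on the cytoskeleton. RGS proteins speed the hydrolysis of GTP on Gi/o and Gq/11 alpha subunits, and in neurons the released beta-gamma pair opens GIRK potassium channels and inhibits calcium channels.

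Levels are TPM, a unit that corrects for transcript length, so that genes can be compared with each other, and ± marks the SD over the 2 animals (n = 2). The deposited gene tables held 26925514 and 30143684 expected counts in replicates 1 and 2, and the members held 0.388% and 0.391% of the counts assigned to genes. The neuronal markers Snap25, Syt1, Slc17a7 and Gad1 summed to 2393 and 2555 TPM in replicates 1 and 2, and the markers of upper and deep cortical layers were present in both, summing to 156 and 157 TPM and to 69.6 and 70.1 TPM. All 5 striatal markers were present too, summing to 452 and 479 TPM, with Ppp1r1b at 259 and 287 TPM and Drd1 at 41.7 and 36.4 TPM. Of the choroid plexus markers, Enpp2 stood at 225 and 101 TPM in replicates 1 and 2 and the other 4 summed to 19.3 and 2.23 TPM. Immediate early genes summed to 431 and 149 TPM, and both lists were higher in replicate 1. The photoreceptor markers Sag and Pde6b stood at 0.94 and 0.85 TPM and at 0.17 and 0.12 TPM.

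The 3′ ends of the coding sequences are shown first, because they carry the sites that separate the classes. In most Gi/o alpha subunits the fourth residue from the end is the cysteine that pertussis toxin modifies, and in gamma subunits the cysteine at the same place receives a prenyl lipid that anchors the beta-gamma pair to the membrane. The last 30 coding bases, stop codon included, are printed 5′ to 3′ on the coding strand, with the fourth-last codon before the stop in capitals, from the GENCODE M21 transcripts on GRCm38 (mm10). The alpha subunit ends are those of the leading transcript of each gene, plus a second end of Gnao1.
Gnao1-201 (chr8:93967026-93967055, plus strand): aacaatctccggggcTGCggcttgtactga
Gnao1-207 (chr8:93956223-93956252, plus strand): aaaaacctacggggcTGTggactctactga
Gnai2-201 (chr9:107615635-107615664, minus strand): aacaacctgaaggacTGTggcctcttctga
Gnai1-201 (chr5:18267019-18267048, minus strand): aataacctaaaagacTGTggtctcttctaa
Gnai3-201 (chr3:108109422-108109451, minus strand): aacaacttaaaggaaTGTgggctttattga
Gnaz-201 (chr10:75015183-75015212, plus strand): aacaatctcaagtacATCggcctttgctga
Gnaq-201 (chr19:16383365-16383394, plus strand): ctgaacctgaaggagTACaatctggtctaa
Gna12-201 (chr5:140760549-140760578, minus strand): gagaacctgaaagacATCatgctgcagtga
A cysteine codon (TGC or TGT) stood in capitals in 4 of the 5 Gi/o genes at 1 TPM or more and in none of the other 5 alpha genes compared, and Gnaz, whose product is the alpha subunit insensitive to the toxin, had ATC. Both Gnao1 ends kept the cysteine codon, though 7 of their 30 bases differ. The ends of 6 gamma subunit genes follow in the same form.
Gng2-204 (chr14:19875807-19875836, minus strand): gagaagaagttcttcTGCgccatcctttaa
Gng3-201 (chr19:8838143-8838172, minus strand): gagaagaagttcttcTGTgcgctcctctga
Gng13-201 (chr17:25719003-25719032, plus strand): gtagagaaggccaagTGCaccatcctatga
Gng12-201 (chr6:67017560-67017589, plus strand): aaggataagaagaccTGCatcatcttatag
Gng11-201 (chr6:4008131-4008160, plus strand): aaagaaaagggcagcTGTgtcatttcataa
Gngt2-207 (chr11:95845579-95845608, plus strand): aaggagaaaggcactTGTgtgctaagctga
All 10 gamma genes at 1 TPM or more had a cysteine codon at this place. The last codon before the stop encoded leucine in 8 of them, which as background is the mark of a geranylgeranyl lipid, and serine in Gng11 and Gngt2, the mark of a farnesyl lipid. Gng2, Gng3 and Gng4 shared the 15 bases before the cysteine codon.

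Most members were present in cortex. The leading gene held from 28.3% of its class TPM among members, for gamma subunits, to 64.1%, for the R4 family of RGS genes. Of the 49 members, 38 (77.6%) stood at 1 TPM or more in each animal, against 59.0% of all protein-coding genes. At 10 TPM the share was 67.3% (33 members), against 36.9% of protein-coding genes, and at 100 TPM it was 10.2% (5 members), against 4.08%. The 5 members past 100 TPM were Gnb1, Gnao1, Gnb2, Rgs4 and Gnai2. The 11 members outside these 38 were Gnat1, Gnat2, Gnat3, Gna14, Gnb3, Gngt1, Rgs1, Rgs13, Rgs18, Rgs21 and Rgs22. In bulk tissue, fewer cells of a type and less RNA per cell cannot be told apart, which holds for every level below.

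**Figure D1:**
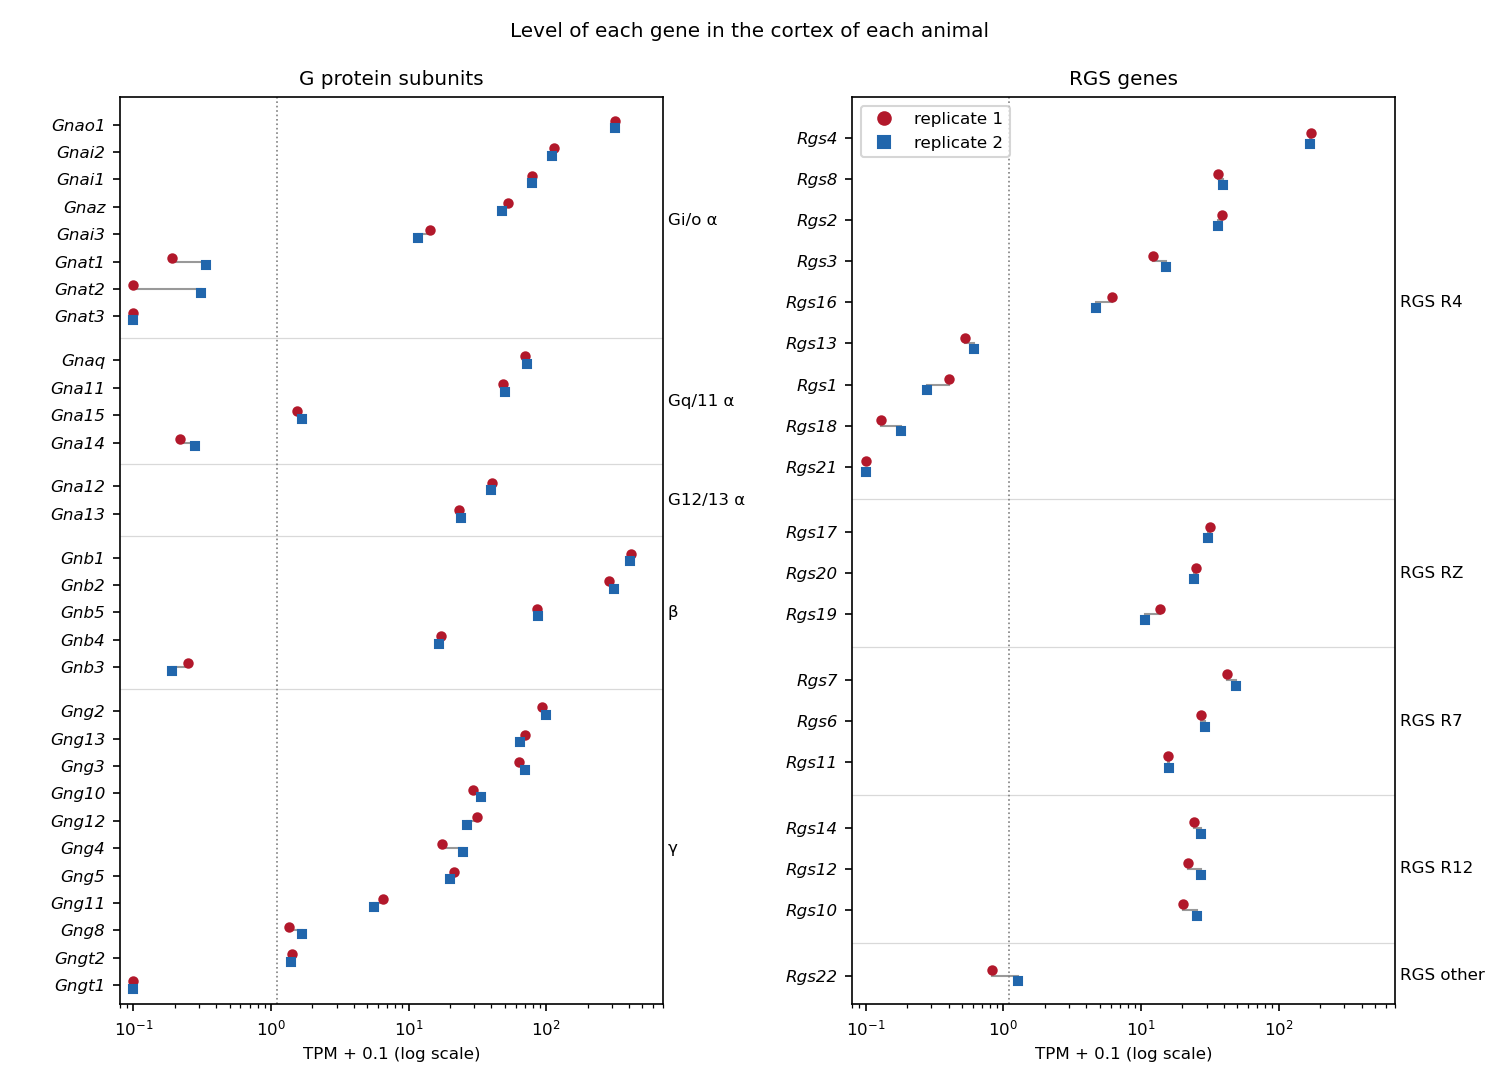
TPM plus 0.1 on a log axis for each of the 49 members in replicate 1 (circles) and replicate 2 (squares), grouped by class and ordered by mean; the dotted line marks 1 TPM. The grey line joining the animals is short for members past 100 TPM, while Gnat2, with 0 and 3 counts in replicates 1 and 2, shows a wide gap.

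Gi/o alpha genes together stood at 573 and 565 TPM in replicates 1 and 2 and held 75.4% ± 0.555 of alpha subunit TPM among the members. Gnao1, the alpha subunit of Go, stood at 314 and 316 TPM (15883 and 17312 counts). It ranked 160th among protein-coding genes by mean TPM and alone held 41.8% ± 0.300 of alpha subunit TPM. Gnai2, an inhibitor of adenylyl cyclase found in most cell types, followed at 114 and 110 TPM (mean 112 ± 3.05), and Gnai1, its paralog prominent in brain, at 78.6 and 79.3 TPM. Gnaz, the alpha subunit of Gz, stood at 52.3 and 47.8 TPM. Gnai3, another inhibitor of adenylyl cyclase, was lowest of these at 12.9 ± 1.73 TPM, with 784 counts in replicate 1 and 705 in replicate 2. Each of these 5 genes was separated from the next, in that both animals of one lay above both animals of the other.

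The sensory members of the class were close to absent in the deposited gene values. Gnat1 and Gnat2 are the transducins of rods and cones, and Gnat3 is gustducin of taste cells. Gnat1 had 3 and 6 counts and Gnat2 had 0 and 3 counts in replicates 1 and 2. By a second deposited quantification, described below, Gnat1 had a mean of 1.49 TPM. Of this, 93.3% and 91.8% in replicates 1 and 2 lay on Gnat1-204, a transcript annotated as noncoding. Gnat3 had no count in either animal, which allows up to 0.122 and 0.109 CPM at 3 counts per library, for counting error only.

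Transcripts of Gnao1 ended in the 2 printed ways, known as the alternative forms of Go alpha, whose coding sequences end 10803 bases apart. Of the 12 annotated transcripts, 3 have a complete coding sequence. Gnao1-207, with the upstream end, stood at 41.7 and 38.8 TPM in replicates 1 and 2. The 2 transcripts with the downstream end, of which Gnao1-201 is one, summed to 199.5 and 205 TPM. The upstream end thus took 16.6% ± 0.980 of these transcripts, and 17.6% ± 1.13 by the second deposited quantification, which was derived from the reads themselves and not, like the first, from alignments. Which single transcript led was not settled: Gnao1-201 held 34.9% ± 1.89 of the gene by the first quantification and 21.9% by the second, where Gnao1-206 led with 30.8%.

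The Gq/11 class was carried by 2 genes. Gnaq, the activator of phospholipase C beta after which the class is named, stood at 69.5 and 72.5 TPM in replicates 1 and 2, and its close paralog Gna11 at 48.3 and 50.3 TPM. Gna15, known from blood cells, stood at 1.44 and 1.57 TPM with 41 counts in each animal, and Gna14, a paralog known outside the brain, had 6 and 11 counts. The leukocyte gene Ptprc stood at 1.53 and 1.38 TPM, and whether blood or resident cells carry the Gna15 reads was not tested. In the G12/13 class Gna12 stood at 40.1 and 39.5 TPM and Gna13 at 23.3 and 23.8 TPM, both activators of guanine nucleotide exchange factors. The Gi/o class exceeded Gq/11 by a factor of 4.80 in replicate 1 and 4.54 in replicate 2, and 5.67 on average by the second quantification.

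Beta subunits were dominated by Gnb1 and Gnb2, which together held 87.3% of beta subunit TPM in each animal. Gnb1 was the highest member of the whole set, at 412 and 403 TPM in replicates 1 and 2, and ranked 99th among protein-coding genes. The second quantification put its mean at 715 TPM, against 408 TPM by the first. Its counts were closer, at 18395 and 21003 by the second and 16928 and 19255 by the first in replicates 1 and 2. Gnb2, its widely expressed paralog, stood at 288 and 309 TPM. Gnb5, the divergent beta subunit that pairs with R7 RGS proteins in place of gamma subunits, stood at 84.9 and 87.3 TPM, or 10.6% of beta subunit TPM. Gnb4 stood at 17.1 and 16.5 TPM. Gnb3, the beta subunit of cones, had 3 counts in each animal. The 4 genes past 1 TPM were each separated from the next.

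Gnb5 has a short form known from brain and a long form known from photoreceptors, which differ at the start of the protein. The transcript of 353 codons, Gnb5-206, stood at 67.4 and 69.6 TPM in replicates 1 and 2, against 7.07 and 0.47 TPM for the 2 transcripts of 395 codons. It thus held 90.5% and 99.3% of the complete coding transcripts. By the second quantification it held 50.6% and 52.1%. The mean share of Gnb5-206 over all transcripts of the gene was 79.5% by the first and 38.9% by the second, so the balance of the forms depended on the quantification. The photoreceptor marker Pde6b stood at 0.17 and 0.12 TPM in replicates 1 and 2.

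Among the 11 gamma subunit members, the leading gene, Gng2, held 28.3% ± 0.638 of their TPM. Gng7, left out by the rule, had a mean of 112 TPM, above Gng2 at 96.6 TPM. Gng2, which pairs with many beta and alpha subunits, stood at 93.2 and 99.9 TPM in replicates 1 and 2. Gng13, known from taste cells and retinal bipolar cells as well as brain, stood at 69.5 and 64.7 TPM, and the neuronal Gng3 at 63.6 and 70.2 TPM. The levels of Gng13 and Gng3 overlapped, and 24.2% of the exon bases of Gng3 also lie in exons of Bscl2 on the opposite strand, a gene at 46.1 and 48.5 TPM. Gng13 rested on only 308 and 312 counts, with a leading transcript of 347 bases, and 51.6% of its exon bases also lie in exons of Chtf18 on the opposite strand, a gene at 2.00 and 0.85 TPM.

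Broadly expressed and neuronal gamma genes followed. Gng10 stood at 29.2 and 33.5 TPM and Gng12 at 31.4 and 26.4 TPM, and they overlapped. Of the exon bases of Gng10, 72.0% also lie in exons of Gm20503 on the same strand, a gene at 0.33 and 0.32 TPM. Gng4, known from neurons, stood at 17.5 and 24.6 TPM and Gng5 at 21.4 and 19.7 TPM, again overlapping. Gng11 stood at 6.45 and 5.49 TPM. Gng8, known from olfactory and vomeronasal neurons, had 12 and 17 counts and Gngt2, the cone gamma subunit, 13 and 12 counts. Gngt1, the rod gamma subunit, had no count in either animal. Summed beta exceeded summed gamma TPM by a factor of 2.37 ± 0.0342, or 1.79 ± 0.0369 with Gng7 added, and 3.48 by the second quantification.

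The RGS members, which leave out Rgs5 and Rgs9, stood at 486 and 504 TPM in replicates 1 and 2 in all. This was below the alpha members at 756 and 753 TPM. The R4 family, mostly small proteins that act on Gi/o and Gq/11 alpha subunits, held 264 TPM in each animal. Rgs4, known for its high level in neurons, stood at 171 and 168 TPM and held 64.1% ± 0.637 of the family sum. That sum leaves out Rgs5, which the rule does not cover and which had a mean of 19.6 TPM. Rgs8, another neuronal member, stood at 36.1 and 39.5 TPM. Rgs2, which acts mainly on Gq alpha and is induced by activity in neurons, stood at 38.5 and 36.1 TPM, overlapping Rgs8. Rgs3 stood at 12.1 and 14.96 TPM and Rgs16 at 6.09 and 4.64 TPM. The family members of immune cells and platelets were near 0: Rgs13 had 11 and 14 counts, Rgs1 had 3 and 2 and Rgs18 had 1 and 3. Rgs21, known from taste cells, had none.

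The RZ family, whose members act on Gz and Gi/o alpha subunits, stood at 69.8 and 65.4 TPM in replicates 1 and 2. Rgs17 stood at 31.4 and 30.5 TPM, Rgs20 at 24.8 and 24.3 TPM and Rgs19 at 13.6 and 10.5 TPM. These 3 were separated from each other, although Rgs20 led by the second quantification. Rgs20 was split between forms: the transcript of 239 codons held 56.2% and 49.5% of its complete coding transcripts and that of 208 codons 42.1% and 43.2%. By the second quantification the form of 239 codons held 55.8% and 32.7% and that of 208 codons 40.6% and 62.0%, and no order of the forms could be given.

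The R7 family, which forms obligate pairs with the Gnb5 protein and is known for fast deactivation of Gi/o in neurons, stood at 85.1 and 93.8 TPM. Rgs7 stood at 42.3 and 48.8 TPM in replicates 1 and 2, Rgs6 at 27.2 and 29.1 TPM and Rgs11 at 15.6 and 15.8 TPM. The 3 genes were separated in gene TPM. By the first quantification the protein-coding transcripts of Rgs11 were listed at 0 TPM in both animals. Its part of the family sum lay on transcripts annotated as noncoding, as described below. The sum leaves out Rgs9, which the rule does not cover and which had a mean of 56.2 TPM, above Rgs7 at 45.6 TPM.

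In the R12 family, Rgs14 stood at 24.0 and 27.1 TPM, Rgs12 at 22.0 and 27.1 TPM and Rgs10 at 19.9 and 25.5 TPM. Rgs12 and Rgs14 are scaffolds that bind Ras proteins and inactive Gi alpha, and Rgs10, known from microglia and neurons, is little more than the RGS domain. Their levels overlapped, and no order could be given within the family. Rgs12 transcripts coded mostly for short forms: the transcript of 733 codons held 47.5% and 54.4% of the complete coding ones in replicates 1 and 2, and that of 1381 codons 21.5% and 20.2%. By the second quantification these were 62.0% and 65.5% for 733 codons and 24.9% and 22.7% for 1381 codons. Rgs22, known from testis, stood outside these families with 48 and 56 counts.

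Across the 9 classes, 22 of 29 pairs of neighbours past 1 TPM were separated, both animals of one gene lying above both of the other. The pairs were already ordered by mean, and pairs of other genes were not compared, so no background share stands beside this count. The 7 that were not were Rgs14 with Rgs12, Rgs12 with Rgs10, Rgs8 with Rgs2, Gng13 with Gng3, Gng10 with Gng12, Gng4 with Gng5, and Gng8 with Gngt2.

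Not all of these reads lay on coding transcripts. For members past 10 TPM the median share of TPM on transcripts annotated as noncoding, such as retained introns and transcripts subject to nonsense-mediated decay, was 4.48%, against 10.6% over 8115 protein-coding genes at that level. A share of at least 20% was held by 7 of 33 members (21.2%), against 34.4% of protein-coding genes. Rgs11 stood apart from the other members. Its 2 protein-coding transcripts were listed at 0 TPM in both animals, with upper bounds of at most 0.680 and 0.953 TPM, at a level the files do not name. Its 8 retained-intron transcripts summed to 15.2 TPM in each. By the second quantification the coding transcripts had 0.272 and 1.76 TPM, and the noncoding share was 97.6% and 89.0%. Of the exon bases of Rgs11, 138 of 4206 also lie in exons of Arhgdig on the opposite strand, a gene at 42.7 and 45.1 TPM. Whether reads of that gene were counted for Rgs11 was not tested.

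Rgs11 was followed by genes with mixed output. Gnb4 had 66.2% and 55.6% of its TPM on noncoding transcripts in replicates 1 and 2, Rgs3 40.2% and 60.3%, and Gnb2 40.9% and 45.2%. The second quantification gave lower noncoding shares for all 3, with 46.1% and 45.8% for Gnb4, 29.3% and 47.2% for Rgs3 and 21.7% and 28.7% for Gnb2. For Gnb1 it gave a higher one, 31.7% and 27.8%, against 16.5% and 7.12% by the first. In each of these 3 genes the transcript with the highest mean share by the first quantification was a retained intron, namely Gnb4-207, Rgs3-207 and Gnb2-213. By the second, Rgs3-207 still led, while protein-coding transcripts led in Gnb4 (Gnb4-201 at 34.2%) and Gnb2 (Gnb2-206 at 14.7%). Of the complete coding transcripts of Gnb2, those of 340 codons held 38.9% and 47.8% of TPM and those of 240 codons 51.6% and 49.7%. By the second quantification the 340-codon ones held 33.9% and 37.3%, the 240-codon ones 66.1% and 41.4%, and those of 296 codons 0% and 21.3%, so these shares were unstable. Rgs2 had 46.0% and 37.3% on noncoding transcripts, most of it on one subject to nonsense-mediated decay. Gng10 had 12.1% and 55.3%, a gap between animals that the second quantification gave as 7.96% and 29.1%. At the other end, 11 of the 33 members, among them Gnai1, Gng2 and Rgs17, had no TPM on noncoding transcripts by the first quantification. In 10 of these 11 no transcript is annotated as noncoding, so their share of 0 is set by the annotation, and only Gng4 has such transcripts. These genes enter the median above as well.

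**Figure D2:**
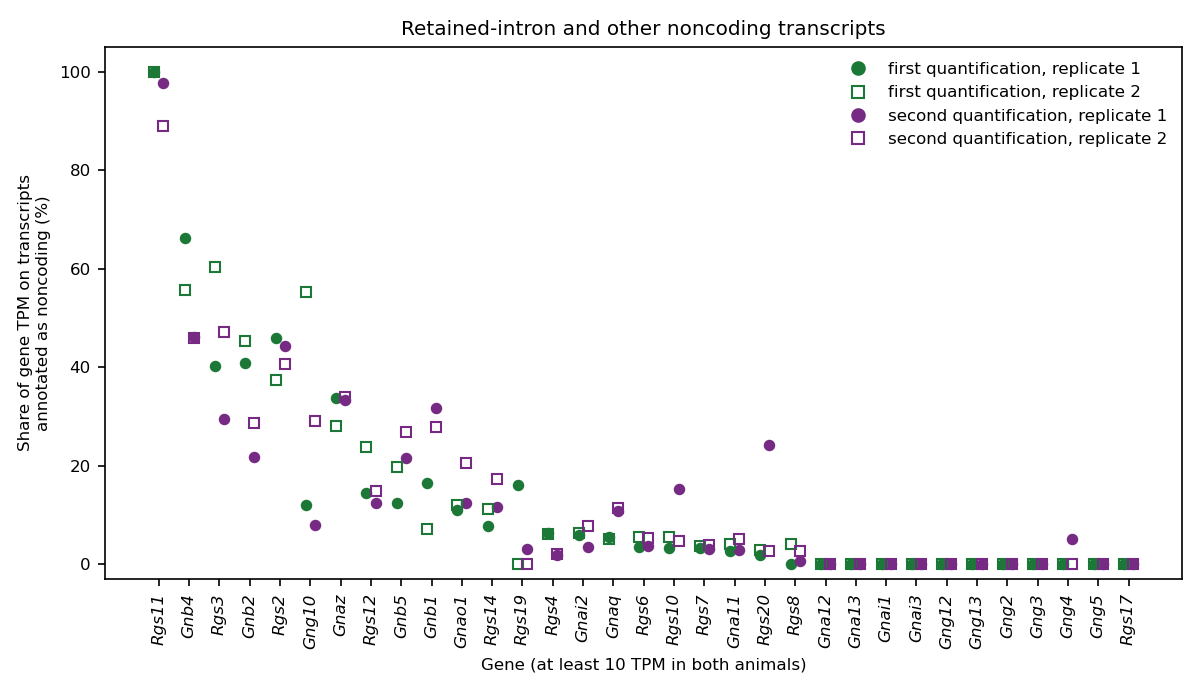
Percent of each gene's TPM on transcripts annotated as noncoding, for the 33 members at 10 TPM or more in both animals, by the first (green) and second (purple) quantification, with replicate 1 as filled circles and replicate 2 as open squares. Rgs11 stands at 100% by the first quantification and Gnb4, Rgs3 and Gnb2 between 40.2% and 66.2%.

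The leading transcript was the same in both quantifications for 29 of the 38 members past 1 TPM and in both animals for 33 of them. It held at least 90% of the gene in 13 members, including Rgs4-201 at 93.8% ± 0.141, Gnaq-201 at 94.7% ± 0.184, Gna11-201 at 96.7% ± 1.12 and Gng13-201 at 98.7%. Gnai1, Gnai3, Gng3, Gng11 and Rgs16 have 1 annotated transcript each, so their agreement and share of 100% are set by the annotation. These 5 genes enter the counts of 29, 33 and 13. The counts of leading transcripts given here and below were not taken over other genes. In 11 members the leader held under 50%, with Rgs6-208 at 41.0% ± 2.03 among 22 transcripts, Rgs12-206 at 38.8% ± 0.460 among 18, Rgs7-206 at 38.1% ± 10.8 among 8 and Rgs2-202 at 43.6% ± 1.07 among 4. Between these lay Gnai2-201 at 67.2% ± 8.16, Gnaz-201 at 59.3% ± 2.84, Gng2-204 at 51.5% ± 1.14, Gng12-201 at 56.2% ± 7.40, Rgs8-202 at 58.1% ± 7.86, Rgs20-201 at 51.6% ± 4.99 and Gna13-201 at 83.1% ± 6.15. Gna12-201 and Gng4-201 held 100% and Gng5-201 98.8%, while Rgs14-201 held 90.6%. The retained-intron leaders held 42.3% (Gnb4-207), 27.6% (Gnb2-213), 26.2% (Rgs11-211) and 20.7% (Rgs3-207), and Gng10-201 held 87.9% in replicate 1 and 44.7% in replicate 2.

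In 6 members the leader's share differed by at least 20 percentage points between quantifications. Gnb1-201 held 53.5% ± 0.728 by the first and 22.4% by the second, where Gnb1-207 led with 24.6%. All 4 complete coding transcripts of Gnb1 have 340 codons. Rgs19-201 held 43.9% by the first and 9.06% by the second, where Rgs19-211 led. Rgs17-204 held 63.3% by the first and 41.6% by the second, and Rgs10-201 held 88.0% and 66.9%. Gnb5-206 was given above. Gngt2-207 held 53.8% by the first and 0% by the second, on 13 and 12 counts in replicates 1 and 2.

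**Figure D3:**
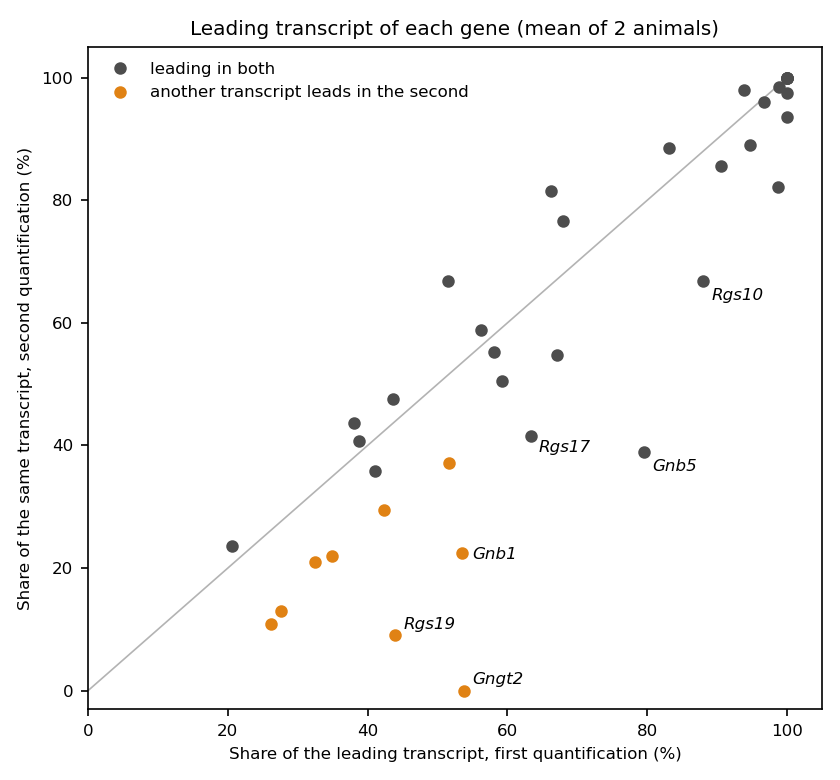
Mean share of the leading transcript over the 2 animals by the first quantification (x axis, percent) against its share by the second (y axis, percent), for the 38 members at 1 TPM or more; the line marks equal shares. The 6 named genes lie at least 20 percentage points below the line, and orange marks the 9 genes in which another transcript led by the second quantification.

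The 2 animals were close to each other over the members and over all genes alike. Of the 36 members that averaged 50 normalised counts or more, 0 differed by 1.5-fold or more, against 3.58% of the 14167 genes counted (1.84% higher and 1.74% lower in replicate 1). By 2-fold or more 0 differed, against 0.861% (0.551% higher and 0.311% lower in replicate 1). The other 13 members had too few counts to enter. The median difference in either direction was 1.06-fold over the members and 1.08-fold over all genes. With only 36 members, 0 lies near the shares over all genes and marks no trait of the members. The genes counted were not matched to the members on level.

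Gng4 and Rgs16 lay at the ends. Gng4 had 947 counts in replicate 1 and 1451 in replicate 2, a log2 ratio of -0.45, with an exact 95% interval of 0.675 to 0.796 for the ratio of 0.733 (counting error only). The second quantification gave -0.41. Rgs16 had 240 counts in replicate 1 and 199 in replicate 2, a log2 ratio of 0.43, with an interval of 1.12 to 1.64 for the ratio of 1.35. Gnai3 had a log2 ratio of 0.32. All 7 immediate early genes were at least 1.5-fold higher in replicate 1, with a median log2 ratio of 1.53, and all 3 choroid plexus genes counted were too, with a median of 2.57. Among members, the activity-induced Rgs2 had a log2 ratio of 0.12 and Rgs4 of 0.06. The part of these lists in the ratios of Rgs16, Gnai3 and Gng4 was not tested.

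**Figure D4:**
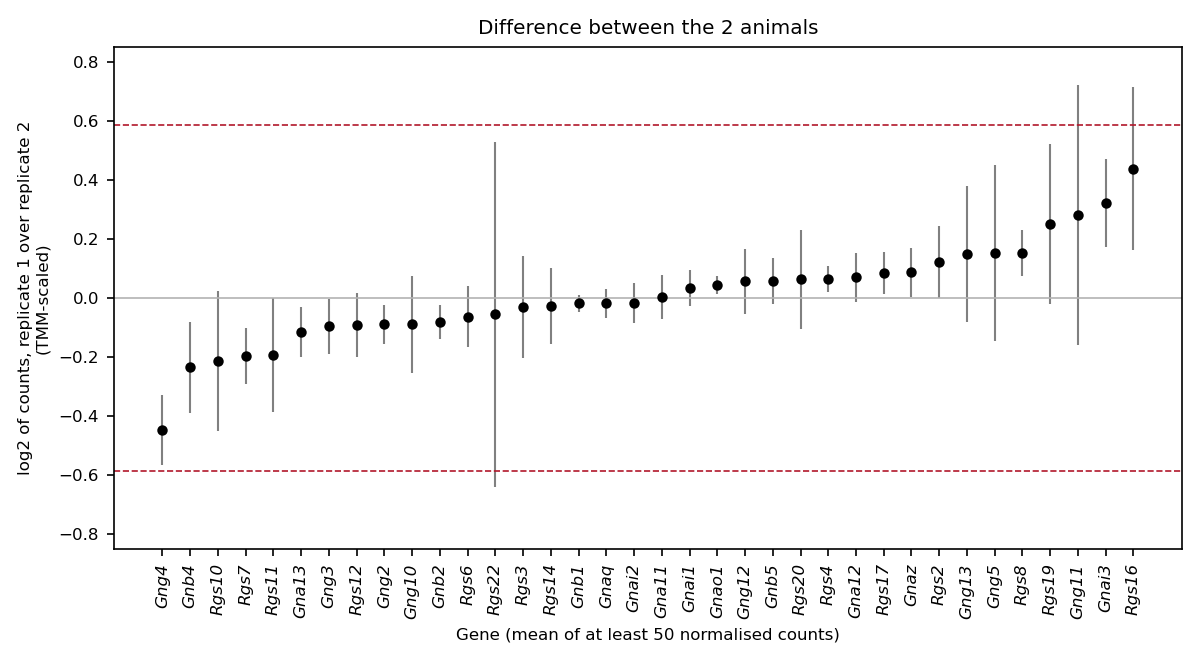
Log2 ratio of TMM-scaled counts, replicate 1 over replicate 2, for the 36 members that averaged 50 normalised counts or more, with exact 95% intervals for counting error and dashed lines at 1.5-fold in each direction. All points lie between the dashed lines, with Gng4 lowest at -0.45 and Rgs16 highest at 0.43.

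Several members lie side by side in the genome, and within such pairs the levels were often far apart. Gnaq (mean 71.0 TPM) lies 48298 bases from Gna14 (0.15 TPM) and Gna11 (49.3 TPM) 4498 bases from Gna15 (1.505 TPM). Gnai3 (12.9 TPM) lies 5847 bases from Gnat2 (0.105 TPM), Gnai1 (79.0 TPM) 245300 bases from Gnat3 (0 TPM), and Gnai2 (112 TPM) 39106 bases from Gnat1 (0.165 TPM), with 1 protein-coding gene between the last 2 and none in the other pairs. Gngt1 (0 TPM) lies 6467 bases from Gng11 (5.97 TPM). On chromosome 1, chr1:143999338-144775435 holds 5 RGS genes in 776098 bases, of which Rgs2 stood at 37.3 ± 1.75 TPM and Rgs13, Rgs1, Rgs21 and Rgs18 at 0 to 0.47 TPM on average. Rgs8 and Rgs16, 40025 bases apart, were both past 1 TPM.

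The start sites of one such pair are printed as an example. Of 6 neighbouring pairs with a window for each gene, the gene with the higher TPM had more CG dinucleotides in 5. In the other pair Rgs8 (37.8 TPM) had 12 and Rgs16 (5.37 TPM) had 22. Neighbouring pairs of other genes were not compared. Over all protein-coding genes the median CG count, given below, was also higher at 10 TPM or more than under 1 TPM. The windows run from 250 bases before to 50 bases after the annotated start, from the RefSeq table on GRCm38.p6, with each CG dinucleotide in capitals.
Gnaq (chr19:16132434-16132733, plus strand): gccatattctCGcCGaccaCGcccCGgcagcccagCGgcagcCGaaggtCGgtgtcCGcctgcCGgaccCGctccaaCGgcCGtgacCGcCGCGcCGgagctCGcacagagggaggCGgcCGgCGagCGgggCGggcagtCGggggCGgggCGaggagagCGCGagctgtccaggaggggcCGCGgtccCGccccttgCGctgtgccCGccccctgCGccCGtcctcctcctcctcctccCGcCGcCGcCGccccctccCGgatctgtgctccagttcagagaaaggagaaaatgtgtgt
Gna14 (chr19:16435417-16435716, plus strand): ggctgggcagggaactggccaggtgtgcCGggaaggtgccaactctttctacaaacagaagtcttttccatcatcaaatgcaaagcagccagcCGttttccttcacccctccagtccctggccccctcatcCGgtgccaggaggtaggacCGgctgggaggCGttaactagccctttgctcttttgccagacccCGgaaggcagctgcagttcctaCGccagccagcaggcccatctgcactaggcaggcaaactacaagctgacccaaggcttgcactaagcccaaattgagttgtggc
The Gnaq window held 39 CG dinucleotides and the Gna14 window 7. RefSeq windows matched 36 of the 49 members, and where a gene had several the one with the most CG was kept. The median count was 30 in the 27 matched members with a mean of at least 10 TPM, against 24.0 in all protein-coding genes at that level, and 4.0 in the 6 members under 1 TPM, against 3.0. Some high members had few: Gng3 had 2, Gng2 and Gnb5 had 5 each and Rgs4 had 13. The GC box letters CCGCCC, on either strand, stood in 19 of 36 windows, against 37.3% of 27025 windows of the table. TATAAA stood in 4 windows (Rgs4, Gnb5, Rgs3 and Gngt1), against 13.7%, and the cAMP response element TGACGTCA in 0, against 1.88%. These are matches of letters and not measured binding. The letter shares over all windows were not matched on level, unlike the CG medians. Those windows had a median of 8.0 CG, against 22.5 in the 36 matched members.

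**Figure D5:**
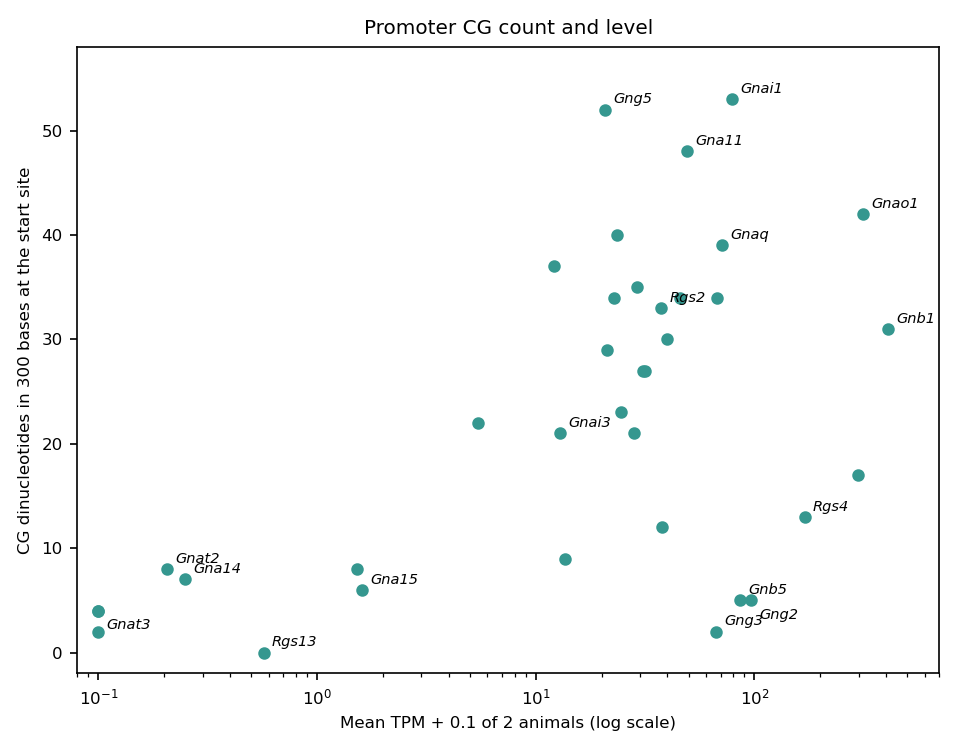
CG dinucleotides in the 300 bases around the annotated start (y axis) against mean TPM plus 0.1 on a log axis for the 36 matched members. Members under 1 TPM have at most 8 CG, while those at 10 TPM or more range from 2 to 53.

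Partners and effectors of the pathway were present as well, read from lists of 33 genes. Outside the rule, Gnas, the alpha subunit that raises cyclic AMP, stood at 790 and 813 TPM in replicates 1 and 2, and Gnal, its olfactory and striatal paralog, at 118 and 121 TPM. Over all transcripts of the gene, Gnas alone thus exceeded the sum of all 14 alpha members, at 756 and 753 TPM. How much of the Gnas level lay on transcripts that code for the alpha subunit was not tested. Among the 4 phospholipase C beta genes, Plcb1 led at 80.3 and 85.8 TPM, Plcb4 followed at 38.2 and 37.8 TPM, Plcb3 stood at 7.33 and 6.36 TPM and Plcb2 at 0.79 and 1.40 TPM. Plcb2 was the 1 gene of these lists past 1.5-fold between animals, lower in replicate 1 by a log2 of -0.72, against 1.74% of all genes counted in that direction.

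The GIRK channel genes Kcnj9, Kcnj3 and Kcnj6 stood at 51.9 and 49.9, 41.3 and 49.8, and 35.6 and 31.7 TPM in replicates 1 and 2, and Kcnj5, the heart form, at 0.36 and 0.42 TPM. Of receptor kinases and arrestins, 7 of 8 were past 1 TPM, led by Grk2 at 91.6 and 91.2 TPM and Arrb1 at 88.3 and 83.2 TPM. Grk4 stood at 2.02 and 2.55 TPM, and Grk1, the rod kinase, at 0 and 0.04 TPM. The 3 exchange factors activated by G12/13 were led by Arhgef12 at 78.8 and 84.5 TPM, above Arhgef1 at 27.2 and 30.3 TPM and Arhgef11 at 25.9 and 24.6 TPM. The chaperones that fold alpha and beta subunits, Ric8b, Ric8a and Pdcl, stood at 35.4 and 31.5, 30.9 and 29.4, and 9.93 and 11.7 TPM. Among binders of Gi alpha and R7 partners, 5 of 9 were past 1 TPM, led by Rap1gap at 154 and 155 TPM and Rgs7bp, the membrane anchor of R7 proteins, at 82.2 and 81.0 TPM. Gpr158, a receptor that recruits Rgs7, stood at 51.4 and 54.8 TPM, while its retinal relative Gpr179 stood at 0.17 and 0.09 TPM and Pcp2, a Purkinje cell gene, at 0 and 0.04 TPM.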

How the data were processed

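Stranded total RNA libraries of 2 animals were analysed. Per the file headers, the authors deposited gene and transcript tables holding expected counts, FPKM and TPM (mm10, GENCODE M21), and each transcript's percent of its gene. A second deposited transcript table, derived from the reads, gives estimated counts and TPM. The programs, and the use of strand in counting, were not given in the sources used here, which leaves genes that overlap others uncertain.

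Members were found by symbol and joined by gene identifier, and every member is named. Members and gene lists were chosen with earlier results of these data known. TPM is quoted as deposited. Shares by the second quantification used its own TPM; its levels are not compared between animals, because its values for most members were higher in replicate 2. For ratios between animals, expected counts were rounded to whole numbers, spike-ins, tRNA and ribosomal RNA entries were left out (library sizes 24688669 and 27440152), and TMM-scaled CPM from edgeR 4.0.16 was taken with a prior count of 2, replicate 1 over replicate 2. Genes averaging 50 or more normalised counts entered. Intervals are binomial (exact, 95%), and 0 counts allow up to 3; both cover counting error only. With 1 group of 2 animals no test was made. The ratio step was tested on simulated data. Alternatives were the size factors of DESeq2 1.42.0, scaling by spike-ins, FPKM, other thresholds, the second quantification and single animals. Calculations ran in R 4.3.3 and in Python 3.11.15 with scipy 1.17.1, numpy 2.4.6 and pandas 2.3.3.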

Additional observations from a re-analysis of the deposited data

How the results depend on the processing

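The number of members past 1 TPM stayed between 35 (FPKM) and 39, and was 38 to 39 with each animal left out. With no count filter, 1 member (Gnat2) differed by 2-fold and 2 (Gnat2 and Rgs18) by 1.5-fold between animals, on at most 3 counts each. The second quantification gave 5.67 for the ratio of Gi/o to Gq/11 and 3.48 for beta to gamma; the cause was not tested. Leaving out each animal in turn gave 4.54 to 4.80 and 2.35 to 2.40. In the R12 family Rgs10 led by the second quantification and Rgs12 without replicate 1, and in the RZ family Rgs20 led by the second quantification. Spike-in scaling moved the median log2 ratio of all genes to 0.07. No paired analysis was possible because there is 1 group. Counts of 3 or fewer, as for Gnat1, Gnb3, Rgs1 and Rgs18 in at least 1 animal, support no comparison.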
